A study of Homo sapiens and Mus musculus with 6 samples.

Results

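The Hi-C library of mouse embryonic stem cells (mESCs) was examined for contacts between 1-Mb bins of the same chromosome. All bin pairs of the authors' HOMER list with both bins on 1 chromosome were kept, each once, which gave 14248 *cis*-chromosomal pairs of 25147 pairs in all, while the other 10899 joined 2 chromosomes. The series holds Promoter Capture Hi-C (CHi-C) of the human lymphoblastoid line GM12878 and of mESCs, together with the single mESC Hi-C library used here. The mESCs were J1 cells of the 129S4/SvJae strain, for which the labels name no genetic change or treatment. They were grown with 15% serum on irradiated embryonic fibroblasts and were replated to shed these feeder cells before fixation with formaldehyde. No other genotype, treatment or time point was measured by Hi-C. A contact map holds no expression values against which the cell type could be checked, and 1 library gives no spread between replicates.

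Hi-C cuts cross-linked chromatin with a restriction enzyme, here *Hin*dIII, marks the filled-in ends with biotin and joins ends that lie close together, so that a read pair reports which 2 fragments were neighbours in a nucleus. Chromosomes are known to fold into a gene-dense, transcribed compartment and a gene-poor, late-replicating compartment, and stretches of the same compartment tend to touch each other over long distances. Read pairs become rarer with distance along the chromosome, so contacts are usually read against the number that coverage and distance predict.

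The ends that Hi-C joins lie at sites like the 6 below (mm9), each at the start of a captured promoter fragment in a bin described later and shown with the bases around it. *Pou5f1* and *Vegfa* lie in a pair of gene-rich bins with one of the higher contact ratios of a pluripotency gene, *Sox2* in a bin with a single partner, *Cdh6* in a gene-poor bin with many partners, and *Prdm14* and *Iars2* in the bins of the longest pair. Capitals mark the *Hin*dIII site, and sequences are from the forward strand, 5′ to 3′.
Pou5f1, chr17:35641056-35641175: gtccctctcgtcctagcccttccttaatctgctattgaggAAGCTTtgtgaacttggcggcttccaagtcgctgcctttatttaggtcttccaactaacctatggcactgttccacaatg
Vegfa, chr17:46166759-46166878: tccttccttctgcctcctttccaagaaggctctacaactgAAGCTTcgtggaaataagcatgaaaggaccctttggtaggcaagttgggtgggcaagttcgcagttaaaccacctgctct
Sox2, chr3:34546388-34546507: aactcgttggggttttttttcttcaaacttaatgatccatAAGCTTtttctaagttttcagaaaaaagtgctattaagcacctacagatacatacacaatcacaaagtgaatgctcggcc
Cdh6, chr15:13098323-13098442: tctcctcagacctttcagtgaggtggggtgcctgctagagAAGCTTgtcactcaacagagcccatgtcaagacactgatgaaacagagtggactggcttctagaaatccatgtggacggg
Prdm14, chr1:13111004-13111123: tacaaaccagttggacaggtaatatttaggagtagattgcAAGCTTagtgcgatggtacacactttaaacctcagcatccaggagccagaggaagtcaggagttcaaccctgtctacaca
Iars2, chr1:187150700-187150819: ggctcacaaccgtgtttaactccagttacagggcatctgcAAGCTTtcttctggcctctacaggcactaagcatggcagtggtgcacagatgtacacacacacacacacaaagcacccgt
A junction of filled-in ends reads AAGCTAGCTT. The *Pou5f1* bin held 250 *Hin*dIII sites at a GC content of 48.91%, the *Sox2* bin 351 sites at 43.69% and the *Cdh6* bin 328 sites at 38.41%.

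For each pair the list gives the read pairs that join the bins and the number expected by HOMER from the read ends of both bins and their distance. HOMER kept pairs with a z score of at least 1 and a p-value of at most 0.001, so every listed pair has more reads than expected by construction, and the ratios below describe the list and test nothing. The 2527 bins held 154765098 read ends in total, with a median of 63524 per bin. Among the 167476 pairs that these bins could form on their chromosomes, 8.51% were listed, and 8.13% were listed with a false discovery rate (FDR) under 0.05, the threshold of the study's methods. The 629 listed pairs at or above that threshold, with FDR values up to 0.0974, were kept. Intervals given below are 95% intervals and cover counting error only, and neighbouring pairs are not independent of each other.

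The listed *cis*-chromosomal pairs had a median of 138 observed and 79.45 expected read pairs. The ratio of observed to expected reads had a median of 1.69 (interval 1.687 to 1.697) and ran from 1.29 to 20.3. It reached 2 in 2756 pairs (19.3%), 3 in 344 pairs (2.41%) and 5 in only 20 pairs. For comparison, the listed *trans*-chromosomal pairs had a median ratio of 2.06, with medians of 34 observed and 16.3 expected read pairs. Most listed contacts between megabases of a chromosome thus stayed below a ratio of 2.

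The listed pairs reached far along the chromosomes. Distance is the difference between bin starts, so that adjacent bins are 1 Mb apart. The median distance was 31 Mb (interval 30 to 31 Mb), with quartiles at 15 and 50 Mb, against a median of 41 Mb over all possible pairs. Of the listed pairs, 82.1% spanned more than 10 Mb (interval 81.5 to 82.8%), 24% more than 50 Mb and 2.25% (321 pairs) more than 100 Mb.

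The listed share did not simply fall with distance. Of adjacent bins 23.0% were listed, and of bins 2 Mb apart 15.6%. At 3 to 5 Mb the share was lowest among the shorter classes, at 7.17%. It was 11.4% at 21 to 40 Mb, then 7.79% at 41 to 80 Mb and 3.18% beyond. The reads available for such a call fell over the same range: expected reads of listed pairs had a median of 1637 for adjacent bins and 28.1 beyond 80 Mb. The median ratio of the listed pairs rose from 1.41 to 2.02 between those classes. The lowest listed ratio was 1.295 for adjacent bins, 1.51 at 2 Mb, 1.43 at 41 to 80 Mb and 1.49 beyond 80 Mb. The part of read depth in the listed share was not tested.

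Listed pairs formed patches. Of the 13297 listed pairs at least 3 Mb apart, 85.4% had a listed pair directly next to them, meaning the same bin on one side and the adjacent bin on the other, against 13.8% of the 149250 unlisted pairs at these distances. A single region of contact was therefore often counted as several pairs.

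Gene density was measured as the number of captured promoter fragments (baits) per bin that had at least 1 call in the mESC CHi-C data, which come from the same line. Of 16265 such baits, 16223 lay in listed bins. Bins were called gene-rich with at least 7 baits (887 bins, 35.1%) and gene-poor with at most 1 bait (830 bins, 32.8%), the counts nearest to equal classes. Gene-rich bins also had a higher median GC content than gene-poor bins, at 44.61 against 38.18%, fewer *Hin*dIII sites, at 300 against 336, and more read ends, at 69679 against 50300.5.

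Over all distances, gene-rich bins were listed with gene-rich bins more often than with gene-poor bins, though not at 1 and 2 Mb. Of 22136 possible pairs of gene-rich bins 5233 were listed (23.6%, Wilson interval 23.1 to 24.2%), while of 36169 possible pairs of a gene-rich and a gene-poor bin 880 were listed (2.43%, interval 2.28 to 2.60%). Pairs of gene-poor bins were listed at 9.13% (1818 of 19919, interval 8.73 to 9.53%). Pairs of gene-rich bins made up 36.7% of the list and 13.2% of what was possible.

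Because gene-rich bins need not lie at the same distances as gene-poor bins, each class was set against a distance expectation, the listed share of all pairs at the same chromosome and distance. Pairs of gene-rich bins were listed 2.45 times as often as this expectation (exact Poisson interval 2.38 to 2.51). Mixed pairs of a gene-rich and a gene-poor bin were listed at 0.288 times the expectation (interval 0.269 to 0.307), and pairs of gene-poor bins at 1.17 times (interval 1.12 to 1.23). The expectation is taken over all pairs, so a high ratio in one class lowers the others. The small excess of gene-poor pairs turned to a shortage, 0.676, when only pairs with a ratio of observed to expected reads of at least 2 were kept. In strength the listed pairs of gene-rich bins were also ahead over all distances together. Their median ratio of observed to expected reads was 1.81, against 1.64 for gene-poor and 1.66 for mixed pairs. Of them 33.3% reached a ratio of 2, against 10.2% each of gene-poor and mixed pairs. These values were not matched for distance, and the median distances were 37, 22 and 27 Mb in that order. At 1 and 2 Mb the gene-rich medians, 1.386 and 1.737, were below those of gene-poor (1.413 and 1.814) and mixed pairs (1.412 and 1.773). In every distance class from 3 Mb on the gene-rich median was above both. At 81 to 193 Mb 59.4% of gene-rich and 55.6% of the 9 gene-poor pairs reached a ratio of 2.

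With 6 classes of baits in place of 3, the ratio to the distance expectation went from one extreme to the other. It was 3.87 for pairs of bins with at least 16 baits, of which 43.9% were listed (1234 of 2813). Between bins with at least 16 baits and bins with none it was 0.189, with 1.70% listed (122 of 7183). Pairs in which both bins held no bait had a ratio of 1.33, and pairs in which both held 3 to 4 baits a ratio of 1.02.

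**Figure D1:**
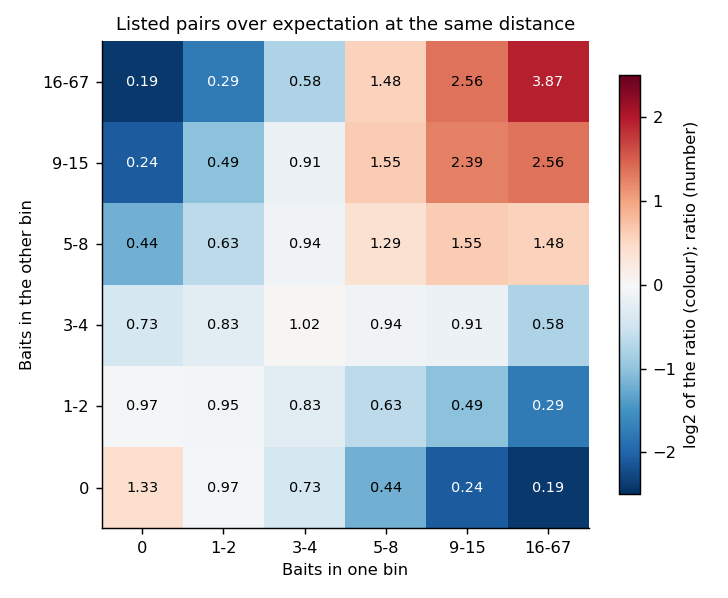
Listed *cis*-chromosomal pairs over the number expected at the same chromosome and distance, for bins grouped by the number of baits they hold (both axes, 0 to 67 baits). Numbers are ratios and colours their log2 values. Every ratio for 2 bins with at least 5 baits lies above 1, up to 3.87, as do those for 2 bins with no bait (1.33) and for 2 bins with 3 to 4 baits (1.02). The lowest, 0.189, lies between bins with at least 16 baits and bins with none.

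Distance separated the gene-rich from the gene-poor contacts. Of adjacent gene-poor bins 50.6% were listed (235 of 464, interval 46.1 to 55.2%), against 10.7% of adjacent gene-rich bins (55 of 514, interval 8.31 to 13.7%). At 2 Mb the shares were 37.8% and 7.16%. Mixed pairs were listed at 13.7% at 1 Mb and 9.47% at 2 Mb, slightly above gene-rich pairs, whose ratios to the distance expectation were 0.484 (interval 0.364 to 0.63) and 0.467 (interval 0.319 to 0.659). From 6 Mb on gene-rich pairs were listed more often than gene-poor pairs, with 25.2 against 8.16% at 6 to 10 Mb. At 41 to 80 Mb the shares were 27.8 and 4.50%, and beyond 80 Mb 17% (722 of 4258) and 0.268% (9 of 3357). Gene-poor pairs thus exceeded the distance expectation at 1 Mb (ratio 2.15, interval 1.89 to 2.45) and at 2 Mb (2.40, interval 2.02 to 2.83). They also did so at 3 to 5 Mb (1.77, interval 1.47 to 2.10). At 6 to 10 and 11 to 20 Mb their intervals included 1. At 21 to 40 Mb they exceeded the expectation again, at 1.45 (interval 1.34 to 1.56). They fell short of it at 41 to 80 Mb (0.651, interval 0.578 to 0.731) and beyond 80 Mb (0.125, interval 0.057 to 0.238).

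**Figure D2:**
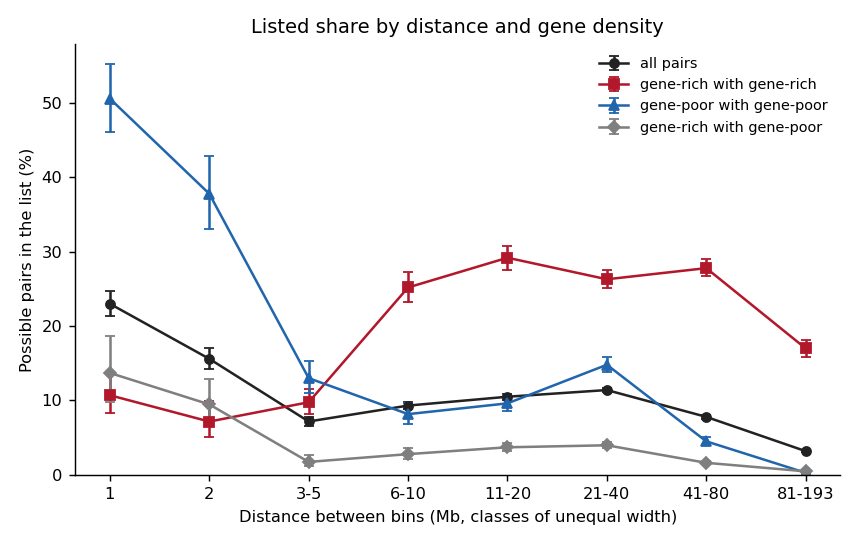
Share of possible *cis*-chromosomal pairs that are listed (y axis, percent) by distance between bins (x axis, Mb, in classes of unequal width), for all pairs and for 3 classes of gene density. Bars are Wilson 95% intervals. Gene-poor pairs lead at 1, 2 and 3 to 5 Mb (50.6, 37.8 and 13.0%), gene-rich pairs lead from 6 Mb on, and mixed pairs stay at or below 4% from 3 Mb on.

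Read ends moved with gene density, so the classes were also compared among bins of like coverage. Both bins of a pair lay in the same tertile of read ends. The expectation here was the listed share of the tertile's pairs at the same distance, over all chromosomes together. These ratios are therefore not on the scale of those above. Over all bins, an expectation by distance alone gave 2.719 for gene-rich, 0.292 for mixed and 1.043 for gene-poor pairs. Gene-rich pairs had ratios of 2.68, 2.75 and 1.80 in the lowest, middle and highest tertile. Mixed pairs had 0.618, 0.285 and 0.295, and gene-poor pairs 1.05, 0.99 and 0.85. The excess of gene-rich pairs and the shortage of mixed pairs were therefore present in each tertile, whereas all 3 intervals of the gene-poor ratio included 1.

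GC content moved with the number of baits more closely (Spearman's rho 0.757 over 2527 neighbouring bins, a description). Among pairs with both bins in the highest tertile of GC content the ratio was 1.31 for gene-rich pairs and 0.317 for mixed pairs, and in the middle tertile 1.44 and 0.617. Gene-rich pairs made up 53.6% of the possible pairs of the highest tertile, so they weighed heavily in their own expectation. Of gene-rich, mixed and gene-poor pairs there, 36.5, 8.81 and 22.7% were listed, the last from 10 of 44. Gene-poor ratios were 1.01, 1.36 (interval 1.09 to 1.66) and 0.848 from the lowest to the highest tertile. In the lowest tertile mixed pairs were above the expectation, at 1.30 (interval 1.08 to 1.55), from 124 listed pairs of 996. Only 19 pairs of gene-rich bins were possible there, of which 10 were listed (ratio 2.90, interval 1.39 to 5.33).

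These AT-rich bins with many promoters numbered 30, and 16 of them held baits of olfactory or vomeronasal receptor genes, large tandem families read out in sensory neurons. Among all 887 gene-rich bins, 59 held olfactory and 8 vomeronasal receptor baits. Of the 320 listed partners of the 30 bins 45.9% were gene-poor and 17.2% gene-rich, against 23.0% and 50.1% over all bins. Gene-rich bins as a class had 5233 listed pairs among themselves and 880 with gene-poor bins. Because mixed pairs were above the expectation in this tertile, the gene-poor partners of these bins are in part the same pairs and not a separate result. One example was the bin chr17:38000001-39000000 with 8 olfactory receptor genes from *Olfr128* to *Olfr136*, which had a GC content of 37.5%, 7 baits and 31 partners, 17 of them gene-poor and 4 gene-rich. By contrast the bin chr4:43000001-44000000, in which 6 olfactory receptor genes such as *Olfr155* lie among 32 baits at a GC content of 45.97%, had 42 partners, 37 of them gene-rich and 2 gene-poor.

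Bins differed widely in how many partners they had. The median was 9 partners, with quartiles at 4.5 and 16, and the highest number was 52. Apart from chromosome Y, a bin had from 58 possible partners on chromosome 19 to 192 on chromosome 1. Partner counts here and in the gene families below were not adjusted for this. No partner was listed for 56 bins, of which 8 lay on chromosome X, and their median of 62131 read ends was close to that of all bins. Gene-rich bins had a median of 15 partners, gene-poor bins 6 and the bins between them 8. Across bins, Spearman's rho of the number of partners was 0.400 with baits, 0.435 with GC content, -0.456 with *Hin*dIII sites and 0.175 with read ends, given as descriptions because neighbouring bins share contacts and composition.

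**Figure D3:**
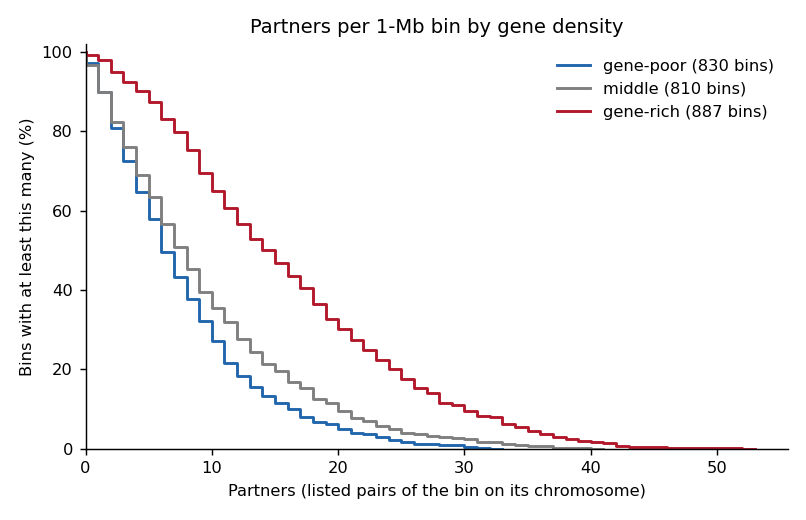
Share of bins (y axis, percent) with at least the number of partners on the x axis, for gene-poor, middle and gene-rich bins. The gene-rich curve lies to the right of the others, with medians of 15, 8 and 6 partners in gene-rich, middle and gene-poor bins.

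At least 30 partners were listed for 128 bins on 16 chromosomes, 24 of them on chromosome 2. Of these 97 were gene-rich and 8 gene-poor, and they had a median of 12 baits against 4 over all bins. The 97 gene-rich bins had 3432 listed partners, of which 76.5% were gene-rich and 5.77% gene-poor. The 8 gene-poor bins had 246 listed partners, 125 gene-poor and 33 gene-rich. In each of these 8 bins gene-poor partners outnumbered gene-rich ones, but they made up over 50% of the partners in only 2 of the 8.

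The bin with the most partners was chr8:19000001-20000000, which carries beta-defensin genes such as *Defb14* and *Defb4*, encoding antimicrobial peptides of epithelia. It had 52 partners of 124 possible (41.9%) from 76648 read ends and 8 baits, and lay just inside the gene-rich class. The share of possible partners was higher in chr19:53000001-54000000 (28 of 58, 48.3%) and in chr17:57000001-58000000 (40 of 92, 43.5%). The partners of the defensin bin were 26 gene-poor and 13 gene-rich bins, unlike those of the other 9 bins with the most partners, in which gene-rich partners numbered 28 to 44 and gene-poor ones at most 3.

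Next came chr4:46000001-47000000 with 48 partners, a bin with *Tmod1*, which encodes an actin-capping protein, and *Foxe1*, a forkhead transcription factor of the thyroid. It was followed by chr8:13000001-14000000 with 46, which holds the coagulation factor genes *F7* and *F10* and the lysosomal membrane gene *Lamp1*. The bin chr11:4000001-5000000 with the cytokine gene *Osm* had 45 partners, 44 gene-rich and none gene-poor. In chr7:86000001-87000000, with *Acan*, the gene of the cartilage proteoglycan aggrecan, and *Polg*, the mitochondrial DNA polymerase, there were 44, of which 37 were gene-rich and none gene-poor. These bins reached far, with median partner distances of 77.5, 75.5, 70 and 47.5 Mb in that order.

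Of the gene-poor bins with at least 30 partners, the 3 with the highest share of gene-poor partners are described here. The first was chr15:13000001-14000000, whose single bait is that of the cadherin gene *Cdh6*. Its 31 partners lay at 1 to 79 Mb, 21 of them gene-poor and 1 gene-rich. The bin chr3:158000001-159000000, with the synaptic scaffold gene *Lrrc7*, had 32 partners, 16 gene-poor and 5 gene-rich. The bin chr1:126000001-127000000 held no bait and had 30 partners, 20 gene-poor and 2 gene-rich.

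The bin with the most partners on its chromosome was not always of the gene-rich kind. On chromosomes 3, 8, 9, 13, 15, 17, 18 and X it had more gene-poor than gene-rich partners. On X this bin was chrX:165000001-166000000 with *Msl3* and *Amelx*, whose 19 partners included 14 gene-poor bins and 1 gene-rich bin. On the other 12 autosomes gene-rich partners of the leading bin numbered 18 to 44.

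Many promoters did not by themselves go with many partners. The bin with the most baits, 67, was chr11:99000001-100000000, which holds the type I keratin cluster (*Krt12*, *Krt20* and others, filament proteins of epithelia). It had 2 partners of 117 possible, at 14 and 15 Mb, with 93288 read ends. The gene-dense bins chr10:79000001-80000000 and chr10:80000001-81000000, with 51 and 52 baits, had 13 and 9 partners, while chr7:52000001-53000000 with 53 baits had 31 and chr7:31000001-32000000 with 51 baits had 33, of which 30 each were gene-rich.

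The highest single ratios fell into few places. The highest, 20.3 (interval 18.4 to 22.3), joined chr7:39000001-40000000, with *Pop4*, to chr7:46000001-47000000 with 427 read pairs where 21 were expected. These bins have only 356194 and 643806 known bases in mm9, and the first of them also gave the ratios of 8.38 and 7.08 with the bins at 47 and 48 Mb. Bins with few known bases also made the pair of chr1:85000001-86000000 and chr1:87000001-88000000 (343678 and 656322 known bases), with 1285 read pairs where 193.2 were expected (ratio 6.65, interval 6.29 to 7.03). Whether gaps in the assembly have a part in these ratios was not tested. Adjacent bins at the start of chromosome Y, without baits, had a ratio of 7.35. The second highest, 9.05, joined the bin of *Xkr4* near the start of chromosome 1 to chr1:90000001-91000000, 87 Mb away, with 306 read pairs where 33.8 were expected.

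Several of the other high ratios joined pairs of gene-dense bins. The bins chr7:52000001-53000000, with the arginine methyltransferase gene *Prmt1*, and chr7:134000001-135000000, with the zinc finger gene *Maz*, hold 53 and 44 baits and shared 242 read pairs across 82 Mb where 27.5 were expected (ratio 8.81, interval 7.74 to 9.99). On chromosome 10 the bin with *Dot1l*, a histone H3 lysine methyltransferase, was joined to that of *Lrp1* and *Stat6*, a receptor and a transcription factor of cytokine signalling, 47 Mb away with 358 read pairs where 46.2 were expected (ratio 7.75, interval 6.97 to 8.60). Its neighbour, with 51 baits, reached the same partner at a ratio of 7.23. On chromosome 11 the bin of *Rad51c*, a gene of homologous recombination, and that of *Becn1*, a gene of autophagy, 14 Mb away, shared 978 read pairs where 142.8 were expected (ratio 6.85, interval 6.43 to 7.29).

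Most of the longest pairs lay on chromosome 2. The very longest spanned 174 Mb of chromosome 1 and joined the bin of *Prdm14*, a regulator of naive pluripotency, to that of *Iars2*, a mitochondrial isoleucyl-tRNA synthetase, with 38 read pairs where 15.5 were expected (ratio 2.45, interval 1.73 to 3.36, listed FDR 0.000286). The next 9 all joined bins between 24 and 33 Mb of chromosome 2 to bins from 167 Mb on. In 7 of them the distal bin was chr2:180000001-181000000, with *Gata5*, a cardiac and endodermal transcription factor, and the proximal bins included those of *Notch1* and *Lhx3* (154 Mb, 45 read pairs where 20.9 were expected) and of *Abl1* (149 Mb, 58 where 22.7 were expected). Over the whole block of chr2:24000001-33000000 against chr2:166000001-181745455, chosen after these pairs were seen, 28 of 126 possible pairs were listed (22.2%), while over 100 Mb of chromosome 2 in general 121 of 2936 were (4.12%). Of gene-rich pairs over 100 Mb apart on all chromosomes, 12.3% were listed.

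Over 100 Mb, 321 of 16340 possible pairs were listed (1.96%), and 271 of them (84.4%) joined gene-rich bins, while 4 were mixed and 2 gene-poor. These were 12.3% of 2197 possible gene-rich pairs, 0.11% of 3645 mixed pairs and 0.12% of 1662 gene-poor pairs. Chromosomes 3, 9, 10, 13 and X had no listed pair at these distances, of 1596, 210, 351, 153 and 1387 possible pairs. In contrast, the pairs with the most reads were adjacent bins on chromosomes 8 and 11. The first of them joined chr8:120000001-121000000, with the signalling gene *Plcg2*, to the next bin with 6696 read pairs where 3543 were expected, a ratio of only 1.89.

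Chromosomes differed in how much of them was listed. Among the 19 autosomes the listed share ran from 5.52% on chromosome 1 (1022 of 18528) to 19.9% on chromosome 19 (341 of 1711), with a median of 10.0%, and shorter chromosomes, on which distances are smaller, had the higher shares (Spearman's rho with the number of possible pairs -0.738 over 20 chromosomes, a description). The median distance ran from 20 Mb on chromosome 11 to 41.5 Mb on chromosome 16. On chromosomes 11, 16 and 19 the longest pair spanned over 97% of the listed bins' range, while on chromosomes 3 and 13 it spanned 60.3 and 64.1%.

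Chromosome X had the lowest share of the 20, at 3.23% (333 of 10296, interval 2.91 to 3.59%), a median distance of 18 Mb and a median of 3 partners per bin. Its bins held a median of 26232 read ends, 0.415 times the median of the autosomes other than 8 and 11, and 2.53 baits on average. Chromosomes 8 and 11 had 1.35 and 1.4 times that median, while the other 17 autosomes lay within 57810 to 67753 read ends per bin. Copy number in the culture was not tested. The 3 bins of chromosome Y in the list formed all 3 of their possible pairs.

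The excess of gene-rich pairs and the shortage of mixed pairs held by chromosome, while gene-poor pairs varied. Gene-rich pairs exceeded the distance expectation on 20 of 20 chromosomes, with ratios of 1.47 on chromosome 19 to 3.44 on chromosome 1 among the autosomes, and 6.89 on X. Mixed pairs were below it on 20 of 20, from 0.120 on chromosome 15 to 0.593 on chromosome 18 among the autosomes and 0.117 on X. Gene-poor pairs were above it on 14 of 20, from 0.607 on chromosome 7 to 1.99 on chromosome 18, and exceeded gene-rich pairs on chromosomes 11 and 14. These chromosomes are parts of 1 library and not replicates.

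**Figure D4:**
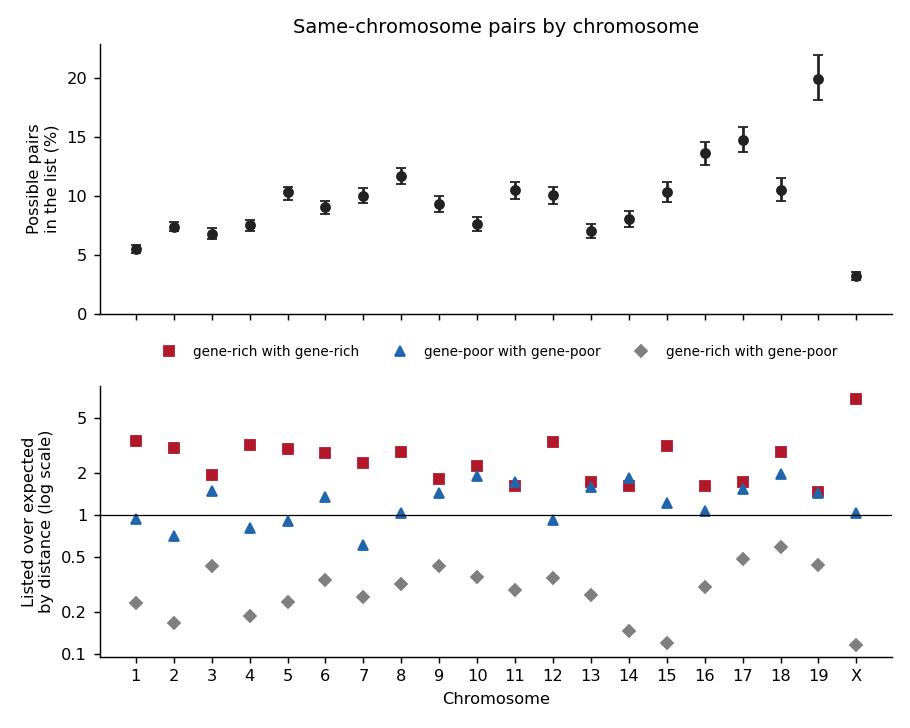
Upper panel: share of possible pairs listed (percent, Wilson 95% intervals) for each chromosome. Lower panel: listed pairs over the distance expectation (log scale) for gene-rich, gene-poor and mixed pairs. The share is lowest on X (3.23%) and highest on chromosome 19 (19.9%), and on every chromosome shown the gene-rich ratio lies above 1 and the mixed ratio below it.

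Bins were next split on each chromosome by their shared partners alone, using the sign of the leading eigenvector of the listed pairs after subtraction of the listed share at each distance. The side with more baits held 1058 bins and the other 1466. Its mean number of baits was 1.30 to 9.03 times that of the other side, at least 2 times on 18 of 20 chromosomes, with chromosomes 3 and 18 as the exceptions. Over all chromosomes the medians were 9 against 1 baits, 11 against 3 annotated coding starts, a GC content of 44.44 against 39.55% and 69357 against 57604 read ends. Median partners were 13 against 7, but on chromosomes 3, 13, 14, 16, 17 and 18 they were fewer on the side with more baits. GC content was higher on this side on 20 of 20 chromosomes, as were read ends, and *Hin*dIII sites were fewer on 19. Since the side was named by its baits, the baits always differ in this direction. GC content, sites and read ends were not used to name it, but they moved with baits across bins. Spearman's rho with baits was 0.757 for GC content, -0.446 for sites and 0.468 for read ends, so their direction is not separate from the naming.

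Among gene families, the bins of core pluripotency factors had a median of 17 partners, against 9 over all bins. Of the 19 genes of that list in the annotation 18 had a bait, in 17 bins, and 10 of these bins lay above the median of all bins, where 47.7% of all bins lie. Of their 268 partners 78.0% were gene-rich and 2.99% gene-poor, against 50.1 and 23.0% over all bins. However, 13 of the 17 bins were themselves gene-rich, and gene-rich bins as a class had a median of 15 partners. These values were not set apart from gene density. The range was wide, from 1 to 36 partners.

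*Pou5f1*, which encodes OCT4, a core regulator of pluripotency, lies in the gene-dense major histocompatibility region with 50 baits, and its bin had 20 partners, 18 of them gene-rich. Its strongest was the bin of the growth factor gene *Vegfa* 11 Mb away, with 531 read pairs where 123.7 were expected (ratio 4.29, interval 3.93 to 4.67). The bin of *Nr5a2*, a nuclear receptor that can activate *Pou5f1*, had the most partners of the list, 36. The bin of *Tbx3*, a T-box factor, had 28 and was joined across 85 Mb to that of *Htt*, the huntingtin gene, with 144 read pairs where 34.6 were expected (ratio 4.17, interval 3.51 to 4.91). *Sall4* had 26 partners, the strongest 138 Mb away with 58 read pairs where 18 were expected (ratio 3.21, interval 2.44 to 4.16). *Klf2* had 24, of which 23 were gene-rich.

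At the other extreme, the bins of *Sox2* and *Klf4*, both reprogramming factors, had 1 partner each, the adjacent bin, with 4572 read pairs where 2904 were expected (ratio 1.57, interval 1.53 to 1.62) and 3960 where 2551 were expected (ratio 1.55, interval 1.5 to 1.6). These bins hold 3 and 2 baits and 83955 and 78994 read ends, more than any other bin of the list. *Nanog* and *Dppa3*, a homeobox factor and a maternal factor of the early embryo, share a bin with 13 partners, 4 of them gene-rich, the strongest at 2 Mb with a ratio of 2.11. *Prdm14* and *Fgf4* had 7 partners each, at up to 174 and 121 Mb, and *Esrrb* had 17.

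The *Hox* clusters, which pattern the body axis and are held silent by Polycomb complexes in mESCs, lie in 4 gene-rich bins with 7 to 12 partners. Of their 42 partners 85.7% were gene-rich and none gene-poor, against 50.1 and 23.0% over all bins. Gene-rich bins as a class also had few gene-poor partners, with 5233 listed pairs among themselves, 2924 with middle bins and 880 with gene-poor bins. The make-up of the *Hox* partners was not set apart from gene density. The *Hoxa* bin had its strongest partner 31 Mb away, with the homeobox genes *Tlx2* and *Lbx2* and the Polycomb gene *Pcgf1* (423 read pairs where 117.4 were expected, ratio 3.60, interval 3.27 to 3.96). That of *Hoxd* lay 41 Mb away with the LIM homeobox gene *Lmx1b* (206 where 85.8 were expected, ratio 2.40, interval 2.09 to 2.75), and that of *Hoxc* 4 Mb away (960 where 361.3 were expected, ratio 2.66). The strongest partner of the *Hoxb* bin is not reported here, so these values give no order among the 4 clusters. No 2 *Hox* clusters share a chromosome, so they could not pair with each other in *cis*.

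The other developmental transcription factors of the *Pax*, *Lhx*, *Irx*, *Dlx*, *Gata* and related families lay in 38 bins with a median of 12.5 partners and a range of 4 to 37. *Pax5*, a B-cell regulator, had 37, *Lhx8* 35, *Dlx3* 34 and the *Zic2* and *Zic5* bin 32, while *Otx2*, *Foxa1* and *Gata6*, regulators of the anterior neural plate and of endoderm, had 4 each. Of their 577 partners 65.5% were gene-rich, against 50.1% over all bins, and 25 of the 38 bins were themselves gene-rich. Of 49 possible pairs within this list 10 were listed, where 4.7 were expected by distance (ratio 2.12, interval 1.02 to 3.90). For gene-rich pairs as a whole the ratio was 2.45.

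The 49 bins of cytosolic ribosomal proteins had a median of 19 partners, and 22 of 64 possible pairs among them were listed where 6.0 were expected (ratio 3.70, interval 2.32 to 5.6). With all annotated genes of the family in place of the baits their 72 bins had a median of 15.5. The 126 bins of zinc finger genes named *Zfp*, many of them repressors of the KRAB family, had a median of 17, and 156 of 520 possible pairs among them were listed where 56.3 were expected (ratio 2.77, interval 2.36 to 3.24). Both families lie mostly in gene-rich bins, 42 of 49 and 101 of 126, and gene-rich pairs as a whole had a ratio of 2.45.

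The 72 bins of olfactory receptors had a median of 11 partners and a ratio of 1.79 for pairs among them (42 of 181, interval 1.29 to 2.41). Of these bins 59 were gene-rich, and 23.2% of the pairs among them were listed. For gene-rich pairs as a whole the share was 23.6% and the ratio 2.45. The 18 bins of vomeronasal receptors had a median of 9, with 28.9% gene-poor partners against 23.0% over all bins. Of 28 possible pairs among them 9 were listed where 3.8 were expected (ratio 2.37, interval 1.08 to 4.49), and 8 of the 18 bins were gene-rich. Defensin bins ran from 2 to 52 partners over 7 bins, and keratin bins from 2 to 33 over 6 bins. The 4 bins of the major histocompatibility complex had 11, 20, 33 and 37 partners of 92 possible.

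The 8 bins of replication-dependent histones had the lowest median of the 11 lists, 5.5 partners, although 8 of 8 were gene-rich. Most of these bins lie on chromosome 13, some next to each other. Bins of chromosome 13 had a median of 7 partners, and no autosome had a lower one. On its side with more baits the median was 5. The *Hist1* bins on chromosome 13, with 30 baits around *Hist1h1c* and 32 around *Hist1h1b*, had 3 and 4 partners of 116 possible, while the *Hist2* bin on chromosome 3 had 13. Within the list 2 of 10 possible pairs were listed, where 1.7 were expected by distance.

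**Figure D5:**
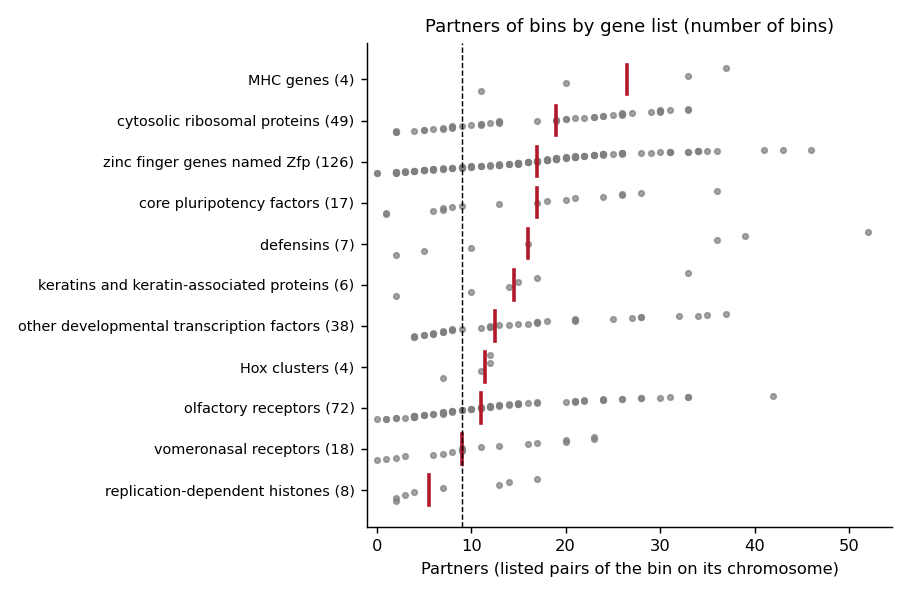
Partners (x axis) of each 1-Mb bin that holds genes of a list (grey points, number of bins in brackets), with the median of each list in red and the median of all bins, 9, as a dashed line. The height of a point within its list only keeps points apart. The lists run from a median of 5.5 for replication-dependent histones to 26.5 for the 4 bins of the major histocompatibility complex, and the points of most lists spread on both sides of the dashed line.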

How the data were processed

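Hi-C read pairs were filtered with HiCUP by the authors (Bowtie 1.1.0, mm9) and 1-Mb bin pairs called with HOMER 4.7. The deposited list gives read counts and expected counts per bin pair, signal as read ends per bin, z scores, natural log p-values and FDR values, the deposited p-value limit being 0.001. All listed *cis*-chromosomal pairs were used, and 1 column of drawing widths was not. Baits came from the authors' deposited joint calls of 2 mESC CHi-C replicates (CHiCAGO score of at least 5), so a promoter without any call was not counted. Possible pairs were all *cis*-chromosomal pairs of the 2527 listed bins. Bins with at least 7 baits were gene-rich and those with at most 1 bait gene-poor.

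The distance expectation summed, over the pairs of a class, the listed share at the same chromosome and distance. Within tertiles of read ends it used the same distance over all chromosomes together. Intervals were Wilson for shares, exact Poisson for counts and ratios, and from order statistics for medians, at 95%. With 1 library, no test between conditions was made. GC content, *Hin*dIII sites and 22380 coding genes came from the mm9 assembly and its GENCODE annotation, where 16265 of 16265 baits began at a *Hin*dIII site. The share of repeats was not computed because the sequence was not soft-masked. Computations used Python 3.11.15, numpy 2.4.6, pandas 2.3.3, scipy 1.17.1 and matplotlib 3.10.9, and were checked on simulated data.

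Bins named were the 10 with the most partners, the leading bin of each chromosome, the 5 with the most baits and those of 11 gene lists. Pairs named were the 10 of highest ratio, the 10 longest and the 5 with the most reads. The members, lists and rules were chosen with earlier results of these data known. Alternatives changed the pairs, bins, distances, density classes and expectation. A few bins that meet these rules are not reported here.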

Additional observations from a re-analysis of the deposited data

How the results depend on the processing

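Of 67 recomputed values, 25 stayed within the interval or tolerance of the reported value, 41 moved outside it and 1 changed direction. Gene-rich pairs stayed above the distance expectation and mixed pairs below it under each alternative tried. The exception in direction was the gene-poor ratio, 0.676 with a ratio of observed to expected reads of at least 2. Under that limit the median distance was 43 Mb, the median ratio 2.271, the listed share 1.65%, the median number of partners 0, and the gene-rich and mixed ratios to the distance expectation 3.669 and 0.144. With an FDR under 0.05 the median distance was 29 Mb, the median ratio 1.701 and the listed share 8.13%. With an FDR under 0.01 they were 27 Mb, 1.719 and 7.38%, with 8 partners and a gene-poor ratio of 1.082. Without chromosome X the listed share was 8.85%, and over all tiles of a chromosome 8.13%. Without bins within 5 Mb of the ends it was 7.93%, with a median ratio of 1.685 and 8 partners. Among bins of the interquartile range of read ends the median distance was 32 Mb, the share 9.95%, the partners 6, and the gene-rich and mixed ratios 2.378 and 0.256. Over 10 Mb the values were 37 Mb, 1.704, 8.14% and 7 partners, with a gene-rich ratio of 2.719 and a gene-poor ratio of 1.007. With the outer quartiles of baits the gene-rich, gene-poor and mixed ratios were 2.82, 1.329 and 0.216, and with a split at the median 1.808, 1.011 and 0.485. With annotated starts the gene-rich and mixed ratios were 2.323 and 0.383, and with baits counted at other ends too the gene-rich ratio was 2.561. With distances over all chromosomes together the gene-rich and gene-poor ratios were 2.719 and 1.043. The cause of these shifts was not tested.

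Chosen after seeing the data, leaving out bins with fewer than 900000 known bases gave a gene-rich ratio of 2.446. With annotated genes in place of baits the median partners of pluripotency, ribosomal protein and *Zfp* bins were 15, 15.5 and 15, and the other lists moved by at most 1. No paired analysis was possible because the Hi-C data are 1 library, and no replicate could be left out. The list holds only pairs above HOMER's limits, so weaker contacts were not analysed here. Listed pairs beyond 80 Mb had a median of 58 read pairs, against 2377.5 at 1 Mb, and the part of depth in what was listed was not tested.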
